A study of Homo sapiens with 16 samples.

Results

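The comparison described here is the difference between the response of cisplatin-resistant A549/cDDP cells to cisplatin and the response of their parental line A549. It uses the 8 untransfected libraries of a series of 16, 2 in each of 4 groups: A549/cDDP in cisplatin, A549/cDDP in solvent, A549 in cisplatin and A549 in solvent. For every gene the cisplatin effect in A549/cDDP had the cisplatin effect in A549 subtracted from it, and genes were then sorted by whether the A549 response was lost, reduced, kept, strengthened or reversed in A549/cDDP, or whether a response was gained there. The sorting covered all 16621 genes that passed the filter on low values, a mean level of 0.5 FPKM or more across these libraries.

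A549 is an established human lung adenocarcinoma line, and A549/cDDP is its derivative selected for growth in cisplatin. Per the labels, A549/cDDP was kept in medium with cisplatin at a concentration labelled 15 mM, and A549 in the same medium without the drug. Cells were seeded at 35000 per well, and each group then spent 24 h in cisplatin, again labelled 15 mM, or in the drug's solvent. That unit is printed as given and was not checked. How long A549/cDDP had been out of the drug before the solvent treatment, and whether the line is 1 clone, are not given in the sources used here. Another 4 libraries of A549/cDDP, in cisplatin or solvent after transfection with 12 pmol of a control gapmer, an antisense oligonucleotide, were collected 48 h after transfection. They served to look at the same response in samples that the sorting did not use.

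Cisplatin forms crosslinks between neighbouring bases of DNA, which block replication and transcription. Cells with an active p53 protein answer by transcribing genes that halt the cell cycle, repair DNA or start apoptosis, and in the arrested cells the genes of DNA replication and mitosis are transcribed less. Resistant lung cancer cells are known to take up less drug, bind it, repair its adducts or tolerate them.

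RNA levels are given in FPKM, fragments scaled to gene length and library depth. A response, or cisplatin effect, is the mean log2(FPKM + 0.5) in cisplatin minus that in solvent. The line difference is the A549/cDDP effect minus the A549 effect, so that it is negative where a gene rose less, or fell more, in A549/cDDP. Each was tested with limma, two-sided, and called at a Benjamini-Hochberg adjusted p of at most 0.05 over all genes tested. Because of the added 0.5, log2 changes understate those of genes near 1 FPKM or below. The labels do not say whether replicates were separate cultures, and the spread behind each p-value is that between libraries, which may be technical. In these bulk samples a change in the share of cells that transcribe a gene and a change in RNA per cell cannot be told apart.

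Depth was 33220000 to 39250000 fragments per library. Replicates correlated across genes at 0.9938 to 0.9954, and a gene differed between them by a median of 0.0651 to 0.0901 on the log2 scale, in either direction. Principal component analysis gave a leading axis with 61.1% of the variance that set the lines apart, and a next axis with 30% that set the A549 cisplatin libraries apart from the A549 solvent libraries. The 6 markers of a lung epithelial line (KRT8, KRT18, KRT7, KRT19, EPCAM and CDH1) were above 0.5 FPKM in every group. CDKN2A, CDKN2B and MTAP, which A549 lacks through a deletion, stayed under 0.5 FPKM. Of 18 markers of blood, vessel, fibroblast and nerve cells, 15 in A549/cDDP and 14 in A549 stayed under 0.5 FPKM. COL1A1, the highest of them in A549/cDDP, reached 52.7 FPKM there in cisplatin while COL1A2 and COL3A1 did not pass 0.158. NKX2-1, a lung lineage factor, read 1.04 to 1.34 FPKM in the 4 A549/cDDP libraries and was listed at 0 in the 4 A549 libraries.

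Cisplatin moved the transcriptome of A549 widely and that of A549/cDDP little, and for 49.6% of the genes the effect differed between the lines. The line difference was called for 8236 of 16621 genes (49.6%), 3702 with a higher response in A549/cDDP (22.3%) and 4534 with a lower one (27.3%). Of these, 692 (4.16%) and 1237 (7.44%) were differences of at least 2-fold. Within A549/cDDP the cisplatin effect was called for 1355 genes (8.15%), 601 higher (3.62%) and 754 lower (4.54%), and only 14 of the rises (0.0842%) and 8 of the falls (0.0481%) reached 2-fold. Within A549 it was called for 10498 genes (63.2%), 5820 higher (35%) and 4678 lower (28.1%), with 1304 rises (7.85%) and 846 falls (5.09%) of at least 2-fold. The balance of directions among line differences depends on how libraries are scaled: 4408 were higher and 3850 lower under median ratio scaling, against 4307 and 3779 under quantile normalization.

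Sorted by these calls, 6869 genes (41.3% of those tested) had lost their A549 response, meaning that the A549 effect and the line difference were called in opposite directions and the A549/cDDP effect was not called. A missing call does not show that no response was left. The A549/cDDP effect was under 0.25 in size for 6261 lost genes, but reached 1.5-fold for 36 and 2-fold for 4. Many lost responses were small in A549, with medians of 0.64 for rises and -0.53 for falls, and 1558 reached 2-fold there. Another 780 genes (4.69%) had a reduced response, called in both lines in the same direction and smaller in A549/cDDP. Lost and reduced genes together numbered 7649 (46%). The response was kept for 195 genes (1.17%), called in both lines with no call for the difference, and strengthened for 9 (0.0541%). It was reversed for 209 genes (1.26%), and gained for 114 (0.686%), where A549 showed no call. A further 2484 genes with a call in either line could not be placed. Whether a gene counts as lost or reduced turns on its small A549/cDDP effect, and that effect was called for 439 genes without A549/cDDP solvent replicate 1, 346 without A549/cDDP solvent replicate 2 and 663 without A549/cDDP cisplatin replicate 2. In the same order the reduced class held 263, 214 and 386 genes, the kept class 71, 52 and 82, the reversed class 62, 51 and 112 and the gained class 36, 27 and 67. Reversed genes numbered 123 without A549 solvent replicate 1 and 119 without A549 solvent replicate 2, and the strengthened class held between 2 and 18 genes with 1 library left out.

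**Figure D1:**
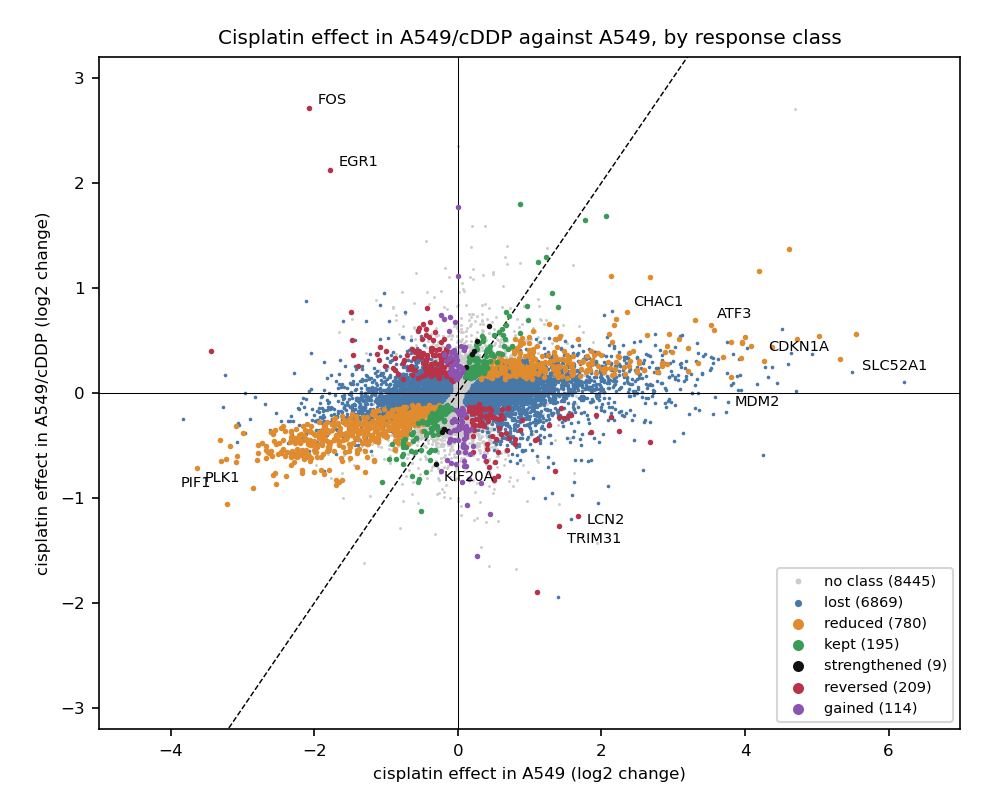
Cisplatin effect of each tested gene in A549/cDDP (vertical axis, log2 change) against its effect in A549 (horizontal axis, log2 change), coloured by response class, with the dashed line marking equal effects. The cloud lies along the horizontal axis: A549 effects reach 6.21 for SLC52A1 while most A549/cDDP effects lie near 0, and FOS and EGR1 stand alone at the upper left (1 gene lies outside the plotted range).

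The strongest A549 responders show how little was left. Among the 1304 strong A549 rises, of 2-fold or more, the median effect was 0.12 in A549/cDDP (quartiles -0.01 and 0.23), against 1.48 in A549. For the 846 genes that fell at least 2-fold in A549 the medians were -0.26 in A549/cDDP (quartiles -0.40 and -0.10) and -1.43 in A549. Only 9 of the rises and 3 of the falls also reached 2-fold in the same direction in A549/cDDP. Among the rises, 1068 were lost (81.9%), 168 reduced (12.9%), 17 reversed and 6 kept; among the falls, 490 were lost (57.9%), 317 reduced (37.5%), 11 reversed and 1 kept. These genes were chosen on their A549 effect, which enters the line difference, so the shares are a description.

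The damage-induced genes, most of them known p53 targets, responded less in A549/cDDP for every member tested. The gene lists used here and below were written with earlier results of these data known. The A549 effect also enters the line difference, so counts of list members are a description. Of 58 genes in 6 lists by role, 55 were tested, and all 55 rose in A549 and had a lower response in A549/cDDP (27.3% of all genes did), with a median line difference of -1.98 against -0.06 over all genes. Their median effect was 0.15 in A549/cDDP and 2.15 in A549. In solvent, 52 of the 55 were already higher in A549/cDDP than in A549 (43% of all genes were) and 1 was lower. This difference between lines in solvent was called for 72.1% of all genes in either direction, with a median of 0.14 that became 0.01 under median ratio scaling and -0.01 under quantile normalization. TP53AIP1, TNFRSF6B and PLTP were not tested because of low values. The geometric mean level of the 55 genes was 58.8 and 59 FPKM in A549/cDDP with cisplatin and 53 and 52.9 FPKM in A549/cDDP with solvent. It was 104 and 103 FPKM in A549 with cisplatin and 21.3 and 21.3 FPKM in A549 with solvent. A549/cDDP without the drug thus stood between both states of A549, and with the drug it stayed below A549 with the drug.

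CDKN1A, which encodes the cyclin-dependent kinase inhibitor p21, is the central arrest gene of this response (ENSG00000124762, chromosome 6, 36676460 to 36687339 on hg38). It read 708 and 711 FPKM in A549/cDDP with cisplatin and 580 and 573 FPKM in A549/cDDP with solvent, against 1636 and 1611 FPKM in A549 with cisplatin and 84.1 and 84.3 FPKM in A549 with solvent. No groups overlapped, and the A549/cDDP solvent libraries lay far above the A549 solvent libraries. The effect was 0.30 ± 0.03 (SE) in A549/cDDP and 4.26 ± 0.03 in A549, with a line difference of -3.96 (limma adjusted p = 2.51e-09). MDM2, the ubiquitin ligase that degrades p53 (ENSG00000135679, chromosome 12, 68808176 to 68850686), read 299 and 313 FPKM in A549/cDDP with cisplatin and 291 and 290 FPKM in A549/cDDP with solvent. In A549 it read 818 and 803 FPKM with cisplatin and 56.8 and 58.6 FPKM with solvent. Its A549/cDDP effect of 0.07 was not called (limma adjusted p = 0.231), and its line difference was -3.73 (limma adjusted p = 5.6e-09). In control gapmer cells MDM2 rose by 0.63 (limma adjusted p = 0.000278).

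The other roles followed the same pattern. Among the arrest genes, BTG2, an antiproliferative gene, had an effect of 0.08 in A549/cDDP and 4.17 in A549. GADD45A, a stress sensor that slows the cycle, had 0.22 in A549/cDDP and 2.59 in A549. Among the feedback regulators, TP53INP1 had 0.44 in A549/cDDP and 4.37 in A549, and the phosphatase gene PPM1D, which switches damage signalling off, 0.20 in A549/cDDP and 2.49 in A549. In both lists every tested member, 7 of 7 and 6 of 6, had a lower response in A549/cDDP.

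Of the cell death genes, 15 of 15 tested responded less. FAS, the death receptor, read 101 and 97.3 FPKM in A549/cDDP with cisplatin and 90.8 and 92.5 FPKM in A549/cDDP with solvent, against 149 and 148 FPKM in A549 with cisplatin and 16.9 and 15.7 FPKM in A549 with solvent. Its line difference was -3.04 (limma adjusted p = 3.13e-08). BBC3, which encodes the killer protein PUMA, had an effect of 0.34 in A549/cDDP and 3.69 in A549, and TP53I3 had 0.51 and 3.08 in the same order. All 4 repair and nucleotide supply genes responded less: POLH, the polymerase that copies past cisplatin adducts, had 0.02 in A549/cDDP and 2.44 in A549, and the damage sensors XPC and DDB2 had 0.24 and 0.06 in A549/cDDP and 2.05 and 1.86 in A549.

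The metabolism and autophagy genes differed for 13 of 13, led by FDXR, a mitochondrial electron carrier gene, with a line difference of -3.65 (limma adjusted p = 4.91e-09). The secreted and surface proteins differed for 10 of 10. CD82, a tetraspanin that restrains cell movement, read 57.8 and 60.1 FPKM in A549/cDDP with cisplatin and 57.7 and 58.9 FPKM in A549/cDDP with solvent, which overlap, against 142 and 146 FPKM in A549 with cisplatin and 5.36 and 4.65 FPKM in A549 with solvent. GDF15, a stress hormone, had an effect of 0.28 in A549/cDDP and 3.35 in A549. KITLG, the ligand of the receptor KIT, was the only damage-induced gene with opposite calls, at -0.21 in A549/cDDP and 1.93 in A549. Its A549/cDDP fall was not stable: it was not called without the filter on low values, without a trended prior or with the replicate block.

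Within A549/cDDP 24 of the 55 genes were still called higher with cisplatin, against 3.62% of all genes, and KITLG was called lower. That count was 6 without A549/cDDP solvent replicate 1, 7 without A549/cDDP solvent replicate 2 and 10 without A549/cDDP cisplatin replicate 2, while all 55 line differences stayed called lower in each of these fits. Among the fits that left out a library, 1 of the 55 was called lower without A549/cDDP cisplatin replicate 1 and none in the others. In the control gapmer libraries 39 of the 55 genes rose with cisplatin, against 1.77% of all genes, and none fell. There CDKN1A read 447 and 449 FPKM in cisplatin and 266 and 269 FPKM in solvent, an effect of 0.74, and BTG2 had 0.94. For CDKN1A, FDXR and BTG2 the control gapmer effect exceeded the untransfected effect by 0.45, 0.86 and 0.85 (limma adjusted p = 0.000213, 2.52e-06 and 0.000213), a difference called for 1.97% of all genes. Solvent levels of CDKN1A were lower in control gapmer cells than in untransfected A549/cDDP. In both settings the effects stayed far below those of A549.

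**Figure D2:**
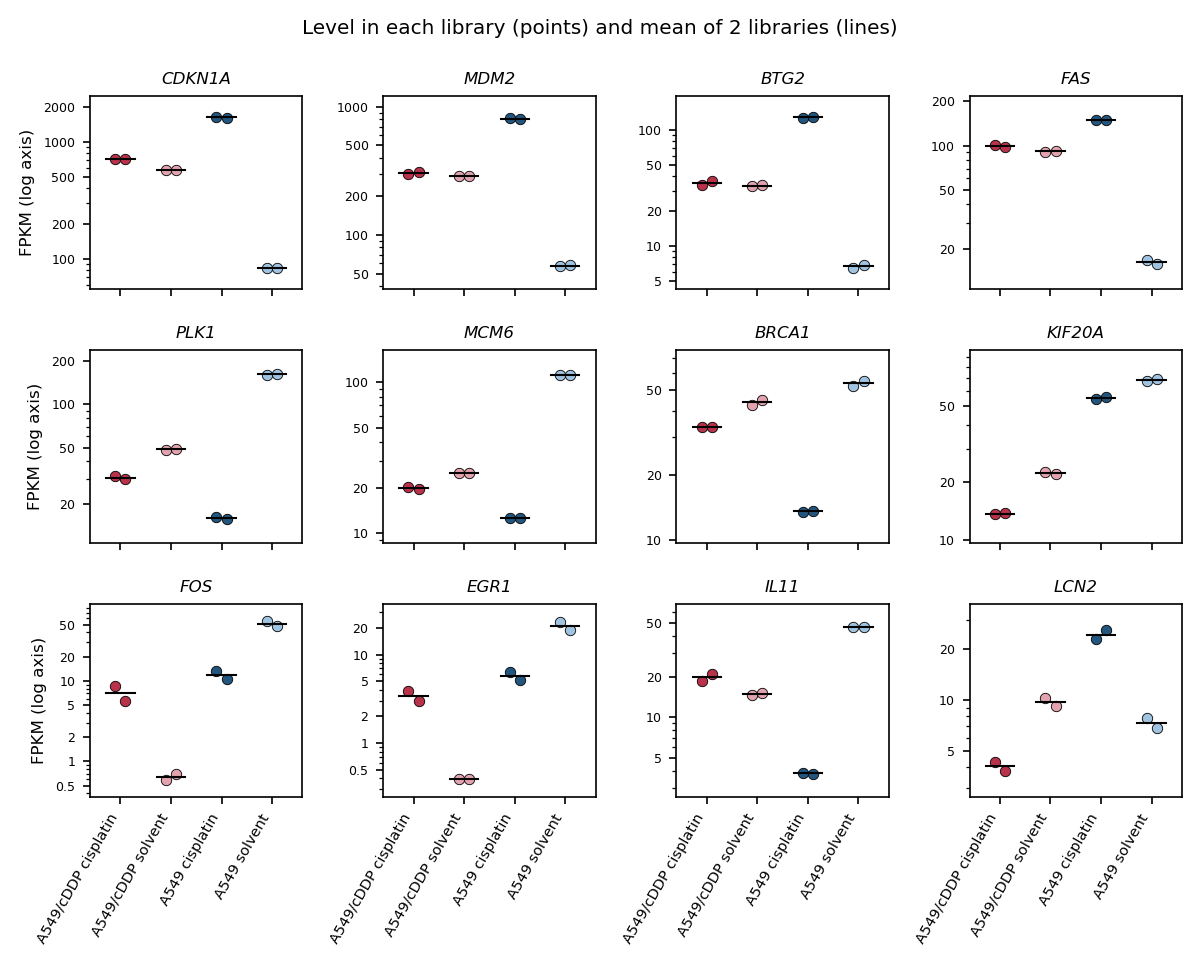
Level of 12 genes in each library (points, FPKM on a log axis) with the mean of 2 libraries (line), for A549/cDDP in cisplatin, A549/cDDP in solvent, A549 in cisplatin and A549 in solvent. In the top row the A549/cDDP solvent libraries lie between both A549 groups, in the middle row PLK1 and MCM6 show the mirror image, and in the bottom row FOS, EGR1 and IL11 are higher in cisplatin in A549/cDDP and lower in cisplatin in A549.

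Mitosis genes fell in both lines, by less in A549/cDDP. Of 32 tested, 32 fell in A549, against 28.1% of all genes, and 28 fell in A549/cDDP, against 4.54% of all genes. The line difference was higher for 30 of them (22.3% of all genes) and lower for 1, with a median of 1.63. All 32 were lower in A549/cDDP than in A549 in solvent, against 29.1% of all genes. The geometric mean level was 20.2 and 18.5 FPKM in A549/cDDP with cisplatin and 27.9 and 27.9 FPKM in A549/cDDP with solvent, against 18.2 and 18.1 FPKM in A549 with cisplatin and 81.2 and 81.2 FPKM in A549 with solvent. With the drug the lines thus reached similar levels, starting apart.

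PLK1, the kinase that drives entry into mitosis (ENSG00000166851, chromosome 16, 23677656 to 23690367), read 31.4 and 30.3 FPKM in A549/cDDP with cisplatin and 48.3 and 48.7 FPKM in A549/cDDP with solvent. In A549 it read 16.4 and 15.8 FPKM with cisplatin and 161 and 164 FPKM with solvent. No groups overlapped. The effect was -0.65 in A549/cDDP and -3.30 in A549, with a line difference of 2.65 (limma adjusted p = 3.71e-08). PLK1 fell in control gapmer cells as well, by 0.57 (limma adjusted p = 2.74e-05), and the list fell for 12 of 32 members there, against 0.927% of all genes. CENPA, the histone variant that marks centromeres, BIRC5, which encodes survivin, and CCNA2, which encodes cyclin A, had line differences of 2.58, 2.21 and 2.17.

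KIF20A, a kinesin needed for cytokinesis, was the exception in direction. It read 13.7 and 13.8 FPKM in A549/cDDP with cisplatin and 22.6 and 22.2 FPKM in A549/cDDP with solvent, against 54.6 and 55.7 FPKM in A549 with cisplatin and 67.8 and 69.3 FPKM in A549 with solvent. Its fall was strengthened, -0.68 in A549/cDDP and -0.31 in A549, with a line difference of -0.37 (limma adjusted p = 0.000397). Its effect in control gapmer cells was -0.63. PTTG1, which encodes securin, was the mitosis gene whose response was kept.

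Mitosis genes share promoter elements that are known to recruit the factor NF-Y (CCAAT) and the DREAM complex, a repressor of cell cycle genes (TTTGAA). The 250 bases before the RefSeq start of PLK1 (GRCh38.p14, chr16:23678639-23678888, plus strand) and of CENPA (chr2:26785806-26786055, plus strand) are shown because both genes carry both motifs, with the matches in capitals on either strand, so that CCAAT can read ATTGG.
PLK1: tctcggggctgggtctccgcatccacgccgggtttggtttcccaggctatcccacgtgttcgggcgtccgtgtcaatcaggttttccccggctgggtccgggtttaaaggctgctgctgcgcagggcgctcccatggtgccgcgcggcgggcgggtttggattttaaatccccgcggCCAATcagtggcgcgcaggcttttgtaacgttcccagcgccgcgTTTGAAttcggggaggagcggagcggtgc
CENPA: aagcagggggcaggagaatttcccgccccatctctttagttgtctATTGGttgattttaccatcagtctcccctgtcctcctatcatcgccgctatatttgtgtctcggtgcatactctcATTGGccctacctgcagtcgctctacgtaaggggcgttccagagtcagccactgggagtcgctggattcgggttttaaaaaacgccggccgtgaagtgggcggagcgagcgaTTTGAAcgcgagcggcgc
In PLK1 the CCAAT match starts at position -73 and the TTTGAA match at -29 from the RefSeq start, and in CENPA the CCAAT matches start at -205 and -130 and the TTTGAA match at -18. No match overlaps another in these windows. Of 26 tested mitosis genes with a promoter in the RefSeq table, 22 held CCAAT (84.6%) and 13 held TTTGAA (50%). The shares were 37% and 16.1% of all 27305 genes in the table, whether tested or not. Here and below, a gene counted if any of its windows held the motif. A match describes letters only and does not show that a factor binds.

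DNA replication genes behaved like mitosis genes. Of 37 tested, 34 fell in A549 and 2 rose, 27 fell in A549/cDDP, and the line difference was higher for 34 and lower for 2. Of all genes 28.1% fell in A549, 4.54% fell in A549/cDDP and 22.3% had a higher line difference. Without either A549/cDDP solvent library, replicate 1 or replicate 2, 16 fell in A549/cDDP. MCM6, a subunit of the replicative helicase, read 20.4 and 19.7 FPKM in A549/cDDP with cisplatin and 25 and 25.2 FPKM in A549/cDDP with solvent, against 12.7 and 12.6 FPKM in A549 with cisplatin and 111 and 112 FPKM in A549 with solvent. Its line difference was 2.77 (limma adjusted p = 3.11e-08). The transcription factor E2F1 (2.19), UHRF1, which maintains DNA methylation (2.23), and the helicase subunit GINS2 (2.25) had differences of like size. The exceptions were PCNA, the sliding clamp and also a p53 target, with -0.01 in A549/cDDP and 0.72 in A549, and GINS4 with -0.21 and 0.18. In the control gapmer cells 2 members of the list fell and 1 rose, against 0.927% and 1.77% of all genes.

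Genes of Fanconi anaemia and homologous recombination, the pathways that unhook and repair DNA crosslinks, fell for 24 of 28 in A549 and for 15 in A549/cDDP. The line difference was higher for 24 and lower for 1. The shares over all genes were 28.1% and 4.54% for the falls and 22.3% for the higher line difference. Their falls in A549/cDDP numbered 4 without A549/cDDP solvent replicate 1, 6 without A549/cDDP solvent replicate 2 and 7 without A549/cDDP cisplatin replicate 2. BRCA1 read 33.6 and 33.4 FPKM in A549/cDDP with cisplatin and 42.3 and 44.9 FPKM in A549/cDDP with solvent, against 13.6 and 13.7 FPKM in A549 with cisplatin and 52.1 and 54.7 FPKM in A549 with solvent. Under cisplatin A549/cDDP thus held more BRCA1 RNA than A549, and the line difference was 1.55 (limma adjusted p = 5.84e-07). Its partner BARD1 (1.42), the recombination gene XRCC2 (1.49) and the nuclease EXO1 (1.51) did likewise in the size of the difference. None of the 28 was called lower in control gapmer cells, against 0.927% of all genes, and BRCA1 had an effect of -0.05 there.

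Nucleotide excision repair genes, which remove cisplatin adducts within a strand, were listed without the damage sensors XPC and DDB2. Those were counted above among the damage-induced genes, which rose in A549 and responded less in A549/cDDP. The genes left in this list changed little in either line. Of 19 tested, 11 rose in A549 and 1 fell, none was called in A549/cDDP, and the line difference was lower for 9 and higher for 1. Over all genes 35% rose in A549 and 27.3% had a lower line difference. That majority shrank with scaling, to 5 lower and 3 higher under median ratio scaling, or 5 and 1 under quantile normalization, a share near that of all genes. It was also 5 lower without A549 solvent replicate 2, A549 cisplatin replicate 2 or either A549/cDDP solvent replicate. The widest line difference in this list, -0.62 for ERCC6, which couples repair to transcription, came with effects of 0.10 in A549/cDDP and 0.72 in A549.

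Immediate early genes, transcription factors and feedback phosphatases that growth factors and stress switch on within minutes, held the clearest reversals. Of 18 tested, 11 rose in A549/cDDP and none fell, while in A549 5 rose and 10 fell. The line difference was higher for 10 and lower for 3. All genes gave 3.62% risen in A549/cDDP, 35% risen and 28.1% fallen in A549, and 22.3% and 27.3% with higher and lower line differences, so the 5 rises in A549 and the 3 lower differences are no more than that background. Reversal was called for 8 of the 18, FOS, JUN, JUNB, EGR1, IER2, DUSP1, ZFP36 and KLF6, against 1.26% of all genes, and each of these fell in A549 and rose in A549/cDDP. Without A549/cDDP solvent replicate 1, 7 of the 18 rose in A549/cDDP, and 1 line difference was lower without A549 cisplatin replicate 1 or A549/cDDP solvent replicate 2.

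FOS, a subunit of the AP-1 factor (ENSG00000170345, chromosome 14, 75278774 to 75282230), read 8.66 and 5.56 FPKM in A549/cDDP with cisplatin and 0.593 and 0.692 FPKM in A549/cDDP with solvent. In A549 it read 13.1 and 10.7 FPKM with cisplatin and 54.8 and 47.7 FPKM with solvent. The A549/cDDP solvent libraries were the lowest and the A549 solvent libraries the highest, with no overlap between groups. The effect was 2.71 ± 0.18 (SE) in A549/cDDP and -2.07 ± 0.18 in A549, with a line difference of 4.78 (limma adjusted p = 3.12e-06). EGR1, a zinc finger factor (ENSG00000120738, chromosome 5, 138465490 to 138469315), read 3.83 and 2.99 FPKM in A549/cDDP with cisplatin and 0.395 and 0.393 FPKM in A549/cDDP with solvent, against 6.41 and 5.15 FPKM in A549 with cisplatin and 23.2 and 18.8 FPKM in A549 with solvent. Its line difference was 3.90 (limma adjusted p = 3.02e-06). The other reversals were smaller: JUNB had 0.59 in A549/cDDP and -0.55 in A549, and KLF6 had 0.37 and -1.13.

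These reversals were not seen in the control gapmer cells. FOS read 3.27 and 2.31 FPKM there in cisplatin and 3.75 and 4.85 FPKM in solvent, an effect of -0.55 that was not called (limma adjusted p = 0.191), and EGR1 had -0.16. Both genes had more RNA in control gapmer solvent cells than in untransfected A549/cDDP solvent cells. The control gapmer effect minus the untransfected effect was -3.26 for FOS and -2.28 for EGR1 (limma adjusted p = 0.000213 and 0.00146). Of the 18 genes 1 rose in control gapmer cells, against 1.77% of all genes. ATF3, a stress-induced factor of the same list, behaved otherwise: it rose by 0.65 in A549/cDDP, 3.52 in A549 and 0.53 in control gapmer cells (limma adjusted p = 0.0456).

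EGR1 is known to be switched on by serum response factor, which binds the CArG box. The 250 bases before its RefSeq start (GRCh38.p14, chr5:138465229-138465478, plus strand) are shown with the CArG boxes in capitals.
EGR1: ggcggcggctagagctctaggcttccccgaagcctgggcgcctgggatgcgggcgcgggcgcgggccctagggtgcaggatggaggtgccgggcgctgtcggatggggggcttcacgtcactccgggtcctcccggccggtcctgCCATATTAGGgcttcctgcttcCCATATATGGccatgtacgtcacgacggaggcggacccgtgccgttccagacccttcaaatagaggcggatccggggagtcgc
The matches start at -105 and -83. A CArG box was found in the window of 2 of 16 tested immediate early genes (12.5%), against 1.44% of all genes in the promoter table, tested or not.

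**Figure D3:**
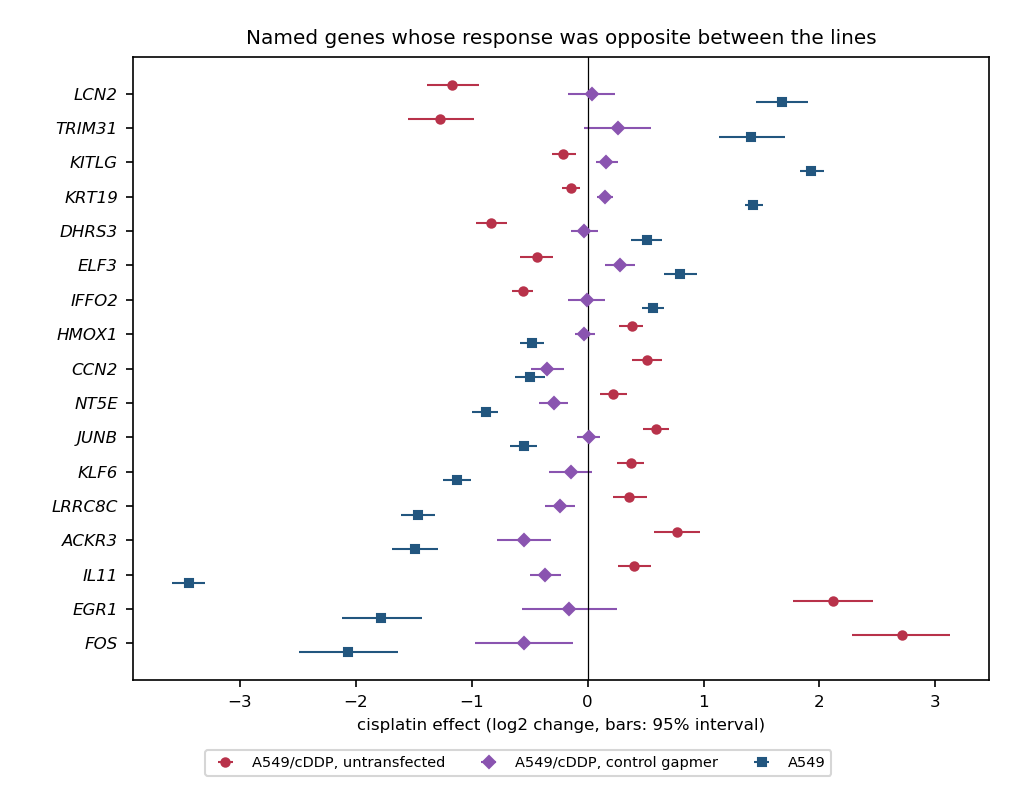
Cisplatin effect (log2 change with 95% interval) of the 17 named genes whose response was opposite between the lines, in untransfected A549/cDDP, in A549/cDDP with control gapmer, and in A549. The control gapmer effects lie between -0.55 and 0.28. Genes for which they carry the sign seen in A549 include FOS, EGR1, IL11, ACKR3, CCN2, NT5E, ELF3, TRIM31, LCN2 and KRT19. For IFFO2, DHRS3 and JUNB they carry the sign of untransfected A549/cDDP, at -0.01, -0.03 and 0.01. Their intervals span 0, as do those of EGR1, TRIM31 and LCN2, so these signs are not settled.

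NF-kB targets and cytokines, the inflammatory arm of the response, rose for 23 of 25 in A549 and fell for 1. In A549/cDDP 3 rose and 6 fell, and the line difference was lower for 22 and higher for 2. For all genes the shares were 35% risen in A549, 3.62% risen and 4.54% fallen in A549/cDDP, and 27.3% lower and 22.3% higher in the line difference. Without A549/cDDP solvent replicate 1 or 2 the A549/cDDP counts were 1 up and 2 down, and without A549/cDDP cisplatin replicate 2, 3 fell. The higher line differences numbered 1 without A549 solvent replicate 2, A549 cisplatin replicate 2, either A549/cDDP solvent replicate or A549/cDDP cisplatin replicate 1. CXCL8, the neutrophil attractant, read 114 and 102 FPKM in A549/cDDP with cisplatin and 98.4 and 115 FPKM in A549/cDDP with solvent, which overlap, against 106 and 106 FPKM in A549 with cisplatin and 25.3 and 25.9 FPKM in A549 with solvent. A549/cDDP without the drug thus held about as much CXCL8 RNA as A549 with it. SAA1, an acute phase protein, read 1.1 and 1.33 FPKM in A549/cDDP with cisplatin and 2.15 and 2.03 FPKM in A549/cDDP with solvent, against 22.1 and 25 FPKM in A549 with cisplatin and 0.525 and 1.05 FPKM in A549 with solvent. Its line difference was -4.85 (limma adjusted p = 2.94e-06), and IL1B (-3.47) and CCL20 (-2.89) were next among the cytokines. TNFAIP3, which encodes the feedback inhibitor A20, had 0.08 in A549/cDDP and 2.62 in A549.

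Reversal was called for 7 members, against 1.26% of all genes: TNFAIP2, CXCL1, CXCL5, CCL2, IL11, LCN2 and C3. Except for IL11 each needs a called A549/cDDP fall. Such falls in the list numbered 3 without the filter on low values and 2 without a trended prior. LCN2, an iron-binding protein of innate defence (ENSG00000148346, chromosome 9, 128149071 to 128153455), read 4.31 and 3.82 FPKM in A549/cDDP with cisplatin and 10.3 and 9.24 FPKM in A549/cDDP with solvent. In A549 it read 23.1 and 25.9 FPKM with cisplatin and 7.86 and 6.79 FPKM with solvent. With the drug it was thus lowest in A549/cDDP and highest in A549, without overlap, and the line difference was -2.84 (limma adjusted p = 1.77e-06). IL11, a cytokine of the interleukin 6 family, went the other way, with 18.5 and 21 FPKM in A549/cDDP with cisplatin and 14.6 and 15 FPKM in A549/cDDP with solvent, against 3.87 and 3.78 FPKM in A549 with cisplatin and 46.3 and 46.7 FPKM in A549 with solvent. Its line difference was 3.84 (limma adjusted p = 8.47e-08). In control gapmer cells LCN2 had an effect of 0.04 and IL11 of -0.37. No member of the list was called higher there and 1 was called lower, against 1.77% and 0.927% of all genes.

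The 250 bases before the RefSeq start of LCN2 (GRCh38.p14, chr9:128149203-128149452, plus strand) are shown with the match to the kappaB consensus, the motif of NF-kB, in capitals.
LCN2: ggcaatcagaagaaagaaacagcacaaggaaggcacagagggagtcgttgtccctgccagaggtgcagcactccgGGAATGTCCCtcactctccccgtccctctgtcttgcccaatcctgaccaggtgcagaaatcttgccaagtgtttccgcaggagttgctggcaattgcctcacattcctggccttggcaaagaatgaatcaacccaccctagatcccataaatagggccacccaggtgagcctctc
The match starts at -175 and was read on the reverse strand. Such a match lay in the window of 13 of 19 tested list members with a promoter in the table (68.4%), against 11.8% of all genes in the table, tested or not. For the damage-induced genes the share with a p53 half-site was 9 of 47 (19.1%), against 6.8%.

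Interferon-induced genes rose for 12 of 17 in A549 and fell for 1, none rose in A549/cDDP and 1 fell, and 10 line differences were lower and none higher. Of all genes 35% rose and 28.1% fell in A549, 3.62% rose and 4.54% fell in A549/cDDP, and 27.3% had a lower line difference. The single fall was not called without A549 solvent replicate 1 or 2, A549/cDDP solvent replicate 1 or 2, or A549/cDDP cisplatin replicate 1. ISG15, a ubiquitin-like protein, read 13.7 and 15.8 FPKM in A549/cDDP with cisplatin and 13.6 and 14.2 FPKM in A549/cDDP with solvent, which overlap, against 31.5 and 37.1 FPKM in A549 with cisplatin and 5.28 and 4.58 FPKM in A549 with solvent. Its line difference was -2.60 (limma adjusted p = 3.32e-06). In the control gapmer libraries ISG15 read 516 and 529 FPKM in cisplatin and 543 and 653 FPKM in solvent. IFI6, another interferon-induced gene, read 1398 and 1420 FPKM in control gapmer cisplatin cells, against 14.1 and 16.8 FPKM in A549/cDDP with cisplatin. IFIT1, which binds viral RNA, read 141 and 142 FPKM in control gapmer cisplatin cells, against 0.91 and 1.09 FPKM in A549/cDDP with cisplatin. The difference in these levels was not tested, and the part it plays in the other control gapmer values was not tested.

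The integrated stress response, in which ATF4 raises amino acid synthesis and survival genes, had members that rose and members that fell in each line. Of 20 genes, 9 rose and 1 fell in A549/cDDP, and 8 rose and 10 fell in A549. The line difference was higher for 12 and lower for 6. Against this stand 3.62% of all genes risen in A549/cDDP, 35% risen and 28.1% fallen in A549, and 22.3% and 27.3% with higher and lower line differences, so the rises in A549 and the lower differences lie near the background. Without A549/cDDP solvent replicate 2, 5 rose in A549/cDDP, and the single fall was lost in 5 of the fits that left out a library. DDIT3, which encodes the factor CHOP, read 21.2 and 21.2 FPKM in A549/cDDP with cisplatin and 15 and 14 FPKM in A549/cDDP with solvent, against 82.8 and 83.7 FPKM in A549 with cisplatin and 4.71 and 4.78 FPKM in A549 with solvent, a reduced rise. CHAC1, which degrades glutathione, rose by 0.77 in A549/cDDP and 2.35 in A549, and NUPR1 by 0.69 and 3.31. ATF4 itself was reversed, at 0.29 in A549/cDDP and -0.24 in A549, and ASNS, asparagine synthetase, was gained, at 0.41 in A549/cDDP against -0.05 in A549. TRIB3, a pseudokinase that dampens the response, was strengthened, with 26.7 and 28 FPKM in A549/cDDP with cisplatin and 18.1 and 16.6 FPKM in A549/cDDP with solvent, against 49.5 and 47.1 FPKM in A549 with cisplatin and 35.2 and 36.1 FPKM in A549 with solvent. That call was not stable: the line difference of 0.21 had a limma adjusted p of 0.0444, which became 0.0976 without the filter on low values, 0.088 without a trended prior, 0.155 in the fit of all 16 libraries and 0.0589 with the replicate block. It was 0.0755 to 0.135 without A549 solvent replicate 1 or 2, A549 cisplatin replicate 2, A549/cDDP solvent replicate 2 or A549/cDDP cisplatin replicate 2. In control gapmer cells CHAC1 rose by 0.45 (limma adjusted p = 0.0363), while TRIB3 and ASNS had an effect of 0.05 each.

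NRF2 targets, which conjugate and export reactive compounds, fell for 16 of 24 in A549 and rose for 5. In A549/cDDP 3 rose and none fell, and the line difference was higher for 16 and lower for 4. Among all genes 28.1% fell and 35% rose in A549, 3.62% rose in A549/cDDP, and 22.3% had a higher and 27.3% a lower line difference. Fits with a library left out gave 1 rise without A549/cDDP solvent replicate 1 or 2 and gave 3 falls without A549/cDDP cisplatin replicate 1. ALDH3A1, an aldehyde dehydrogenase, read 5050 and 5064 FPKM in A549/cDDP with cisplatin and 4850 and 4819 FPKM in A549/cDDP with solvent, against 5292 and 5230 FPKM in A549 with cisplatin and 1747 and 1692 FPKM in A549 with solvent. The level A549 reached with the drug was thus already near that of A549/cDDP without it, and the line difference was -1.55 (limma adjusted p = 5.51e-07). HMOX1, heme oxygenase 1, was reversed with 0.38 in A549/cDDP and -0.48 in A549, and so was the cystine transporter gene SLC7A11 with 0.17 and -0.64.

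Genes of platinum transport and the metallothioneins, which bind metals, gave a line difference for 9 of 13 tested, 7 higher and 2 lower, where 49.6% of all genes had one, 22.3% higher and 27.3% lower. LRRC8C, a subunit of the volume-regulated anion channel, read 8.2 and 8.76 FPKM in A549/cDDP with cisplatin and 6.47 and 6.48 FPKM in A549/cDDP with solvent, against 3.48 and 3.39 FPKM in A549 with cisplatin and 10.5 and 10.2 FPKM in A549 with solvent. Its response was reversed, with a line difference of 1.83 (limma adjusted p = 1.89e-06). The copper transporter gene SLC31A1 had an effect of -0.11 in A549/cDDP and -0.34 in A549, and the copper pump ATP7B had -0.04 and 0.04, neither called. The metallothionein MT1X was gained, with 2.5 and 1.94 FPKM in A549/cDDP with cisplatin and 1.27 and 1.33 FPKM in A549/cDDP with solvent, against 1.01 and 1.2 FPKM in A549 with cisplatin and 1.24 and 1.25 FPKM in A549 with solvent. Its line difference of 0.72 (limma adjusted p = 0.017) was not called without the filter on low values (0.058), without A549 cisplatin replicate 1 (0.0565) or without A549/cDDP cisplatin replicate 1 (0.0555). Of the list 3 genes rose in A549/cDDP, none without A549/cDDP solvent replicate 1, A549/cDDP solvent replicate 2 or A549/cDDP cisplatin replicate 2. The metallothionein genes are near copies of each other, and MT1E and MT1M were listed at 0, so counts among them are uncertain.

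Mesenchymal and matrix genes fell for 16 of 25 in A549 and rose for 4, and in A549/cDDP 7 rose and 1 fell. The line difference was higher for 16 and lower for 3. Over all genes 28.1% fell and 35% rose in A549, 3.62% rose and 4.54% fell in A549/cDDP, and 22.3% had a higher and 27.3% a lower line difference, so the single fall in A549/cDDP is at the background. Without A549/cDDP solvent replicate 1 or 2, 1 rose in A549/cDDP, without A549/cDDP cisplatin replicate 2, 2 rose, and without A549 solvent replicate 1 or 2, 4 rose. SPOCK1, a matrix proteoglycan, read 45.4 and 48.1 FPKM in A549/cDDP with cisplatin and 43 and 40 FPKM in A549/cDDP with solvent, against 0.511 and 0.464 FPKM in A549 with cisplatin and 9.36 and 8.51 FPKM in A549 with solvent. Its fall was lost, with a line difference of 3.43 (limma adjusted p = 1.48e-07), while in control gapmer cells it fell by 0.76 (limma adjusted p = 0.00052). COL5A1 (1.66) and COL4A2 (1.59), fibrillar and basement membrane collagens, differed in the same direction, and CDH2, ZEB2, MMP2 and TAGLN were among the reversed members. The list had 1 rise and 6 falls in control gapmer cells, against 1.77% and 0.927% of all genes.

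Among the epithelial surface genes CEACAM1, an adhesion receptor, read 7.69 and 8.55 FPKM in A549/cDDP with cisplatin and 6.63 and 6.19 FPKM in A549/cDDP with solvent, against 127 and 123 FPKM in A549 with cisplatin and 2.7 and 2.57 FPKM in A549 with solvent. NECTIN4, another adhesion molecule, had an effect of 0.56 in A549/cDDP and 5.54 in A549. Over the 17 genes tested the line difference was lower for 7 and higher for 5, against 27.3% and 22.3% of all genes, and KRT19, a keratin and one of the line markers above, was reversed at -0.14 in A549/cDDP and 1.43 in A549. Of 15 cornified envelope genes 4 were tested. LCE1F read 0.357 and 0.155 FPKM in A549/cDDP with cisplatin and 0.0723 and 0.0843 FPKM in A549/cDDP with solvent. In A549 it read 15.5 and 14.2 FPKM with cisplatin and was listed at 0 in both solvent libraries. LCE1F passed the filter only through its A549 cisplatin libraries, so its rise there and its lower line difference are not independent of the filter. LCE1C and LCE1E followed LCE1F, and the LCE1 genes are near copies. The mucins MUC5AC and MUC5B, at 22.4 to 32.4 FPKM in A549 with solvent, fell there by 1.58 and 1.47, and in A549/cDDP neither reached 0.08 FPKM.

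Lists with mixed directions were ERK feedback genes (12 tested, 5 line differences higher and 3 lower), YAP targets (14, with 5 and 5), cholesterol synthesis (23, with 11 and 4), FGF receptors and D cyclins (11, with 5 and 1) and mucins (6, with 2 and 2). Of all genes 22.3% had a higher and 27.3% a lower line difference, near several of these counts. With median ratio scaling the ERK feedback genes had 8 higher and 3 lower, and with single libraries left out the lower mucin count lay between 1 and 3 and the lower FGF receptor and cyclin count between 1 and 2. The phosphatase gene DUSP5 had -0.15 in A549/cDDP and 1.62 in A549, and the sterol reductase gene TM7SF2 0.26 and 2.85. CCN1, a matricellular YAP target, was strengthened at 0.49 in A549/cDDP and 0.27 in A549, a call that was not stable, and its relative CCN2 was reversed at 0.51 and -0.50. The line difference of CCN1, 0.21 (limma adjusted p = 0.0317), lost its call without the filter on low values (0.0833), without a trended prior (0.0814) and with a library left out in 6 of 8 cases, without A549 solvent replicate 1 or 2, A549 cisplatin replicate 1, A549/cDDP solvent replicate 1 or A549/cDDP cisplatin replicate 1 or 2 (0.0528 to 0.101). CCND1, which encodes cyclin D1, read 925 and 953 FPKM in A549/cDDP with cisplatin and 959 and 959 FPKM in A549/cDDP with solvent, against 417 and 412 FPKM in A549 with cisplatin and 416 and 432 FPKM in A549 with solvent, with a line difference of 0.00. The 13 mitochondrial transcripts gave 5 lower line differences, which became 2 without either A549 solvent replicate, 3 without A549 cisplatin replicate 1 or A549/cDDP solvent replicate 1, 1 without A549/cDDP solvent replicate 2 and 10 without A549/cDDP cisplatin replicate 2.

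**Figure D4:**
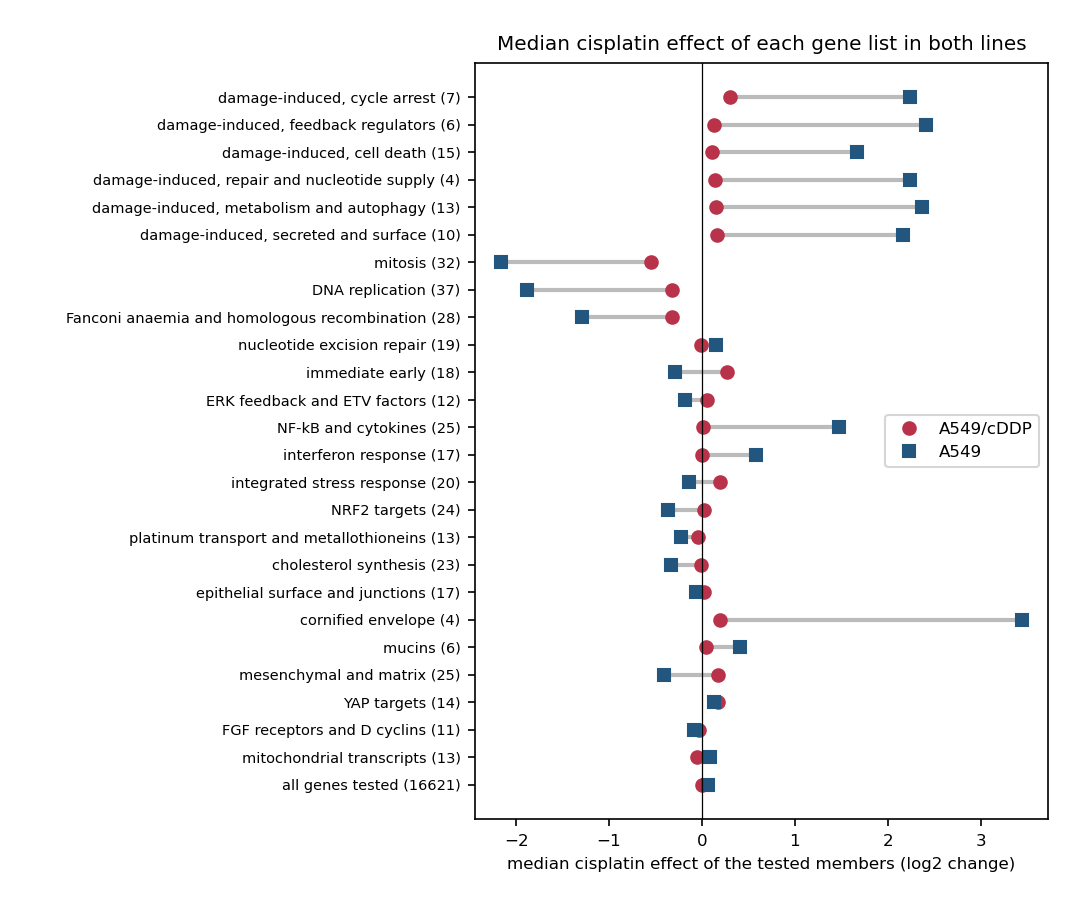
Median cisplatin effect (log2 change) of the tested members of each gene list, in A549/cDDP (circles) and A549 (squares), with the number tested in brackets and all genes in the last row. Damage-induced lists move to between 1.67 and 2.41 in A549 and stay between 0.11 and 0.30 in A549/cDDP, and the mitosis list is at -0.55 in A549/cDDP and -2.16 in A549. The cornified envelope row rests on 4 of its 15 genes.

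Beyond the lists, the lost rises with the widest line differences were SLC52A1, a riboflavin transporter, and GRIN2C, a glutamate receptor subunit. SLC52A1 read 0.252 and 0.339 FPKM in A549/cDDP with cisplatin and 0.245 and 0.238 FPKM in A549/cDDP with solvent, against 63.2 and 60.1 FPKM in A549 with cisplatin and 0.334 and 0.348 FPKM in A549 with solvent. It was thus near silent in 3 of the 4 groups, and its line difference was -6.11 (limma adjusted p = 9.58e-08). SLC52A1 passed the filter on low values only through its A549 cisplatin libraries. Its rise there and its lower line difference are therefore not independent of the filter. GRIN2C had the same kind of call from other levels, with 28.4 and 33.9 FPKM in A549/cDDP with cisplatin and 26.8 and 27.1 FPKM in A549/cDDP with solvent, against 34 and 31.7 FPKM in A549 with cisplatin and 0.209 and 0.27 FPKM in A549 with solvent. Here A549/cDDP stood without the drug close to where A549 stood with it. In control gapmer cells GRIN2C read 17.1 and 17.8 FPKM in cisplatin and 7.68 and 7.29 FPKM in solvent. That rise of 1.17 was called (limma adjusted p = 1.75e-05). Lost rises thus include genes that stayed low in untransfected A549/cDDP and genes that were high there with and without the drug.

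Among the lost falls, SLIT3, a secreted guidance protein, read 5.73 and 5.52 FPKM in A549/cDDP with cisplatin and 6.99 and 6.59 FPKM in A549/cDDP with solvent, against 0.163 and 0.208 FPKM in A549 with cisplatin and 8.95 and 9.54 FPKM in A549 with solvent (line difference 3.58, limma adjusted p = 3.01e-07). The cadherin gene CDH4 (3.14) and the metalloprotease gene ADAM12 (2.96) followed. Their means in A549/cDDP with solvent were only 0.587 and 0.876 FPKM, against 5.47 and 5.15 FPKM in A549 with solvent. In untransfected A549/cDDP there was thus little RNA of either gene that could fall. CDH4 passed the filter on low values only through its A549 solvent libraries, so its line difference is not independent of the filter. SLIT3 and CDH4 fell in control gapmer cells, by 1.06 and 1.66, and the control gapmer effect minus the untransfected effect was -0.81 and -1.53 (limma adjusted p = 0.0124 and 0.00103). Among the reduced falls, PIF1, a helicase, had an effect of -0.72 in A549/cDDP and -3.63 in A549, EXOC4, an exocyst subunit, -0.45 and -3.31, and FAM111B, a protease gene, -0.51 and -3.17. HES2, a transcriptional repressor, and PLXNB3, a semaphorin receptor, were reduced rises with 0.54 and 0.51 in A549/cDDP and 5.03 and 4.73 in A549.

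Reversals from a rise in A549 also included TRIM31, a ubiquitin ligase. It read 1.28 and 0.888 FPKM in A549/cDDP with cisplatin and 3.19 and 3.38 FPKM in A549/cDDP with solvent. In A549 it read 13.7 and 13.1 FPKM with cisplatin and 4.97 and 4.49 FPKM with solvent. IFFO2, an intermediate filament relative, had -0.56 in A549/cDDP and 0.56 in A549, and DHRS3, a retinaldehyde reductase, -0.83 and 0.51. ACKR3, a chemokine scavenger receptor, was reversed from a fall, with 0.77 in A549/cDDP and -1.49 in A549. In control gapmer cells TRIM31, IFFO2 and DHRS3 had effects of 0.26, -0.01 and -0.03, none called, and ACKR3 fell by 0.55 (limma adjusted p = 0.0173).

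Of the 114 gained responses, 2 rises and 3 falls reached 2-fold. Among genes that reached a group mean of 5 FPKM and whose A549/cDDP drug and solvent libraries did not overlap, the widest gained rises were those of MIRLET7D, MSC, SMKR1 and NPC2 and the widest gained falls those of MIR5581, AGFG2, MT-TP and CLMN. NPC2, a lysosomal cholesterol carrier, read 73.9 and 78.1 FPKM in A549/cDDP with cisplatin and 59.5 and 52.2 FPKM in A549/cDDP with solvent, against 41 and 39.7 FPKM in A549 with cisplatin and 35.4 and 39.8 FPKM in A549 with solvent, where drug and solvent overlap. The line difference of NPC2, 0.34 (limma adjusted p = 0.025), lost its call without the filter on low values (limma adjusted p = 0.0856), without a trended prior (0.0642), and without A549 solvent replicate 2, A549 cisplatin replicate 2, A549/cDDP solvent replicate 2 or A549/cDDP cisplatin replicate 2 (0.0714 to 0.0815). SMKR1 lost its call without A549 solvent replicate 2, A549 cisplatin replicate 1 or A549/cDDP cisplatin replicate 1 (limma adjusted p = 0.0532 to 0.0631), and MT-TP without A549 cisplatin replicate 1 or A549/cDDP solvent replicate 2 (0.0585 and 0.0538), without the filter (0.0755) and without a trended prior (0.0503). AGFG2 read 5.55 and 5.74 FPKM in A549/cDDP with cisplatin and 10.9 and 10.3 FPKM in A549/cDDP with solvent, against 10.3 and 9.94 FPKM in A549 with cisplatin and 9.98 and 9.47 FPKM in A549 with solvent, a line difference of -0.91 (limma adjusted p = 6.47e-05). MIRLET7D, MIR5581 and MT-TP are short genes of small RNAs that oligo(dT) selection does not target and that lie within or beside longer transcripts, so the source of their reads is uncertain. In control gapmer cells none of the 114 gained genes was called in the same direction and 1 was called in the opposite one. Of all genes 2.7% were called there in either direction.

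Kept responses were small as well, and a missing call for the difference does not show equality. Of the 195 genes, 158 had a 95% interval of the line difference within ±0.5. Kept rises included AC239859.6 and MAFF, a small Maf factor, and kept falls PKDCC, MIR5587 and RARB, a retinoic acid receptor. PKDCC, a secreted tyrosine kinase, read 10.6 and 8.75 FPKM in A549/cDDP with cisplatin and 18.4 and 17.1 FPKM in A549/cDDP with solvent, against 31.9 and 30.9 FPKM in A549 with cisplatin and 66.1 and 66.1 FPKM in A549 with solvent. Its effect was -0.85 in A549/cDDP and -1.06 in A549, and the line difference of 0.22 was not called (limma adjusted p = 0.148). Without A549/cDDP cisplatin replicate 2 the line difference was called for all 3 of these falls, at 0.35 for PKDCC (limma adjusted p = 0.00583), 0.43 for RARB (0.0106) and -0.48 for MIR5587 (0.0243). Among known regulators, IER3, an immediate early survival gene, was kept at 0.26 and 0.24.

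The lncRNA SCAT7, studied in this series, was taken as ELF3-AS1 (ENSG00000234678, chromosome 1, 201995696 to 202010463, minus strand), which overlaps ELF3 (202007945 to 202017188, plus strand). ELF3-AS1 read 2.41 and 2.41 FPKM in A549/cDDP with cisplatin and 2.89 and 3.79 FPKM in A549/cDDP with solvent, against 15.2 and 13.3 FPKM in A549 with cisplatin and 2.97 and 3.27 FPKM in A549 with solvent. Both solvent groups overlap, the A549/cDDP cisplatin libraries lie just below them and the A549 cisplatin libraries far above, a lost response with a line difference of -2.41 (limma adjusted p = 1.38e-05). ELF3, an epithelial transcription factor, read 28 and 25.1 FPKM in A549/cDDP with cisplatin and 37 and 35.2 FPKM in A549/cDDP with solvent, against 101 and 98.6 FPKM in A549 with cisplatin and 59.7 and 54.8 FPKM in A549 with solvent. Its response was reversed, with a line difference of -1.24 (limma adjusted p = 1.12e-05), and it rose by 0.28 in control gapmer cells (limma adjusted p = 0.0254). Whether strand was used in counting is not given in the sources used here, and reads in the shared stretch cannot be assigned between both genes.

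The classes were then read in the control gapmer libraries, which took no part in the sorting. Cisplatin effects there were called for 449 genes (2.7%), 295 higher (1.77%) and 154 lower (0.927%). Among the 5961 genes without a call in either line, 48.9% had the sign seen in untransfected A549/cDDP. Of the 6869 lost genes, whose untransfected A549/cDDP effect was not called, 197 were called in the direction of that effect and 60 in the other. The same sign was seen for 58.2% of them. Of the 780 reduced genes, 151 were called in the direction seen in untransfected A549/cDDP and none in the other, and 84.7% had the same sign. Of the 209 reversed genes, 1 was called in the same direction as in untransfected A549/cDDP and 17 in the opposite one, and 21.5% had the same sign. For kept genes the figures were 1 and 0 calls and 64.1% with the same sign, and for gained genes 38.6% had the same sign. The difference between the control gapmer and untransfected effects was added after values were seen. It was called for 327 genes (1.97%), and in the direction against the untransfected effect for 93 of the 209 reversed, 34 of the 114 gained and 24 of the 195 kept genes. Those counts share the untransfected libraries that placed the genes.

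Gene span, which the sorting did not use, separated the responses. Long genes fell in A549 and much less so in A549/cDDP. The 141 genes that span at least 500 kb had a median effect of -0.26 in A549/cDDP and -1.03 in A549, and 37 were called lower in A549/cDDP and 107 in A549. Their line difference was higher for 93 (66%) and lower for 12. The 4959 genes under 10 kb had medians of 0.02 in A549/cDDP and 0.12 in A549, and 13.2% of their line differences were higher and 23.8% lower. The median span was 42513 bases for lost falls and 25216 for lost rises, and 55894 for reduced falls and 18741 for reduced rises. Span came from GENCODE 29 and was found for 16383 of the tested genes.

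**Figure D5:**
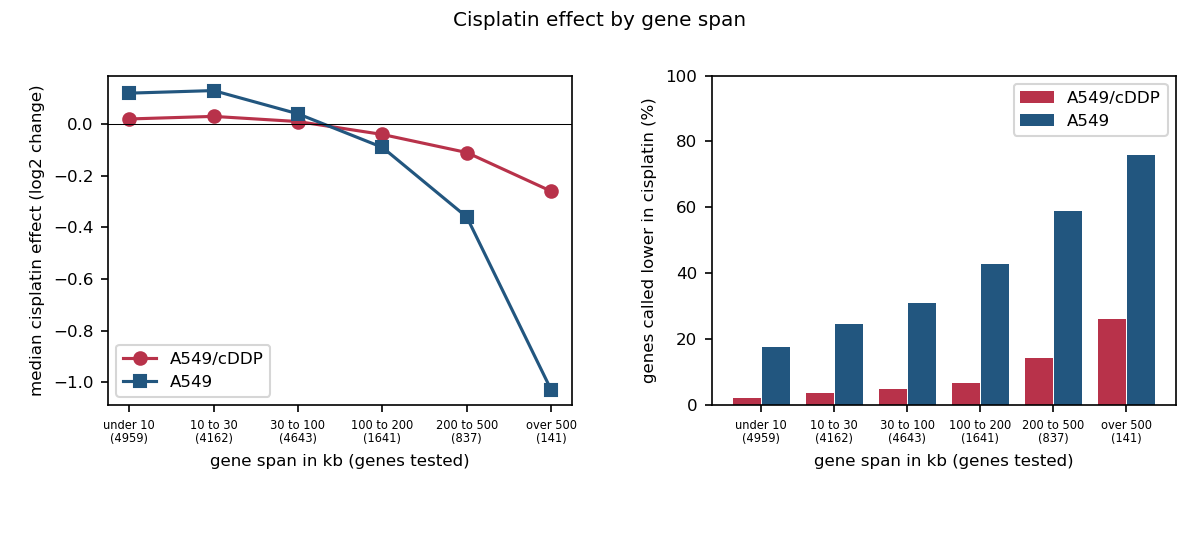
Median cisplatin effect (left, log2 change) and percent of genes called lower in cisplatin (right, bars from 0) by gene span in kb, for A549/cDDP and A549, with the number of genes in brackets. In the longest class the median is -0.26 in A549/cDDP and -1.03 in A549, and 26.2% of genes are called lower in A549/cDDP and 75.9% in A549.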

How the data were processed

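RNA-seq of untransfected A549/cDDP and A549 in cisplatin and solvent was analysed, 2 libraries per group, with control gapmer libraries beside them. The authors deposited FPKM per gene, 60448 identifiers, in 1 table. Reads were aligned with TopHat2 and counted with HTSeq 0.6.1 on hg38, per the submitters' processing notes. Which annotation release was used, and whether counting used strand, are not given in the sources used here. Symbols and spans came from GENCODE 29 (56868 identifiers matched), and promoters from RefSeq.

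FPKM were placed on log2(FPKM + 0.5), and genes averaging 0.5 FPKM or more in the 8 libraries were fitted with limma 3.58.1 (R 4.3.3), 1 mean per group, trended prior, 4 residual degrees of freedom. The control gapmer contrasts came from a fit of all 16 libraries with 8 residual degrees of freedom. The script was tested on simulated data. Depth, 33220000 to 39250000 fragments, was worked out from the step between low FPKM values of a gene, the worth of 1 fragment. PCR copies are not independent, so depth covers counting error only.

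The 30 gene lists (482 members, 427 tested) and the comparison itself were chosen with earlier results of these data known. Named genes were CDKN1A, MDM2, ELF3-AS1, ELF3, FOS and EGR1, then per class and direction those with the largest effects among genes reaching a group mean of 5 FPKM without overlap of drug and solvent libraries, then up to 4 members per list with the widest called line difference, 141 in all. Further list members named (CXCL8, TNFAIP3, ATF4, ASNS, SLC7A11, SLC31A1, ATP7B, CCND1, IER3, PCNA, GINS4, PTTG1 and members named for their class) were chosen after their values were seen. Whether replicate numbers pair libraries is not known. Replicate differences correlated between groups at -0.0806 to 0.131, which cannot exclude a pairing, and the main fit used none. Alternatives covered the pseudocount, filter, scaling, prior, threshold, 16-library fit, replicate block and each library left out, 18 in all. The 4 libraries with a SCAT7 gapmer entered only the 16-library fit, where they add to the estimate of spread, and their effects were not analysed here. A few items are not reported here.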

Additional observations from a re-analysis of the deposited data

Results flagged for a closer look

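The count of 8236 genes whose cisplatin effect differed between the lines, by the test of the difference itself, is described above. Opposite effects in the lines drew attention to 17 named genes, each with the difference tested in the same way.

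Higher in A549/cDDP than in A549 were the effects of FOS (line difference 4.78), EGR1 (3.90), IL11 (3.84), ACKR3 (2.26), LRRC8C (1.83), KLF6 (1.5), JUNB (1.14), NT5E (1.10), CCN2 (1.01) and HMOX1 (0.85). Lower were those of LCN2 (-2.84), TRIM31 (-2.68), KITLG (-2.14), KRT19 (-1.58), DHRS3 (-1.33), ELF3 (-1.24) and IFFO2 (-1.12). NT5E, which encodes the surface enzyme CD73, fell in control gapmer cells by 0.29 (limma adjusted p = 0.0185) and CCN2 by 0.35 (limma adjusted p = 0.0176), the direction of A549, and KRT19 rose by 0.15 (limma adjusted p = 0.0323).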

How the results depend on the processing

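Under all 18 alternatives the counts of line differences in either direction, of A549 effects, of lost genes and of strong A549 responders with a smaller A549/cDDP response stayed within 1.5 times the values given. Of 134 named genes with a called line difference, 120 kept their call and direction throughout, and the only reversal was MT-CO1, at 0.00 with quantile normalization (limma adjusted p = 1). What moved were counts that need a called A549/cDDP effect. The A549/cDDP calls numbered 776 without a filter, 703 without a trended prior and 407 at a threshold of 0.01. In the same order reduced genes numbered 419, 422 and 256, kept genes 88, 93 and 60, and reversed genes 100, 104 and 47. Gained genes numbered 68 without a trended prior and 31 at 0.01, and strengthened genes 5 without a filter, 15 with quantile normalization and 1 at 0.01. With single libraries left out, A549/cDDP calls ranged from 346 to 1198, reduced genes from 214 to 671, kept genes from 52 to 200, reversed genes from 51 to 193, gained genes from 27 to 107 and strengthened genes from 2 to 18. Whether replicate numbers pair libraries is not known. With the replicate block the line difference was called for 8118 genes and the A549/cDDP effect for 1168. Each group had 2 libraries, so with 1 left out the lone library is assumed to vary like the others. The causes of these changes were not tested.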
